A study of Capra hircus with 12 samples.

Results

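Cytosolic ribosomal protein genes encode the proteins that, with ribosomal RNA, build the large (60S) and small (40S) subunits of the ribosome outside mitochondria. They were taken as every gene in the count tables whose symbol begins with RPL or RPS, goes on with a number and may end in the letter A, X, Y or L, which gave 73 of the 28910 genes, here called members. Of these, 42 belonged to the large subunit and 31 to the small subunit. The family was selected on measured values, since it was taken up after a rise of its counts with LOXL2 had been seen. The members' differences between treatments are therefore given as a description with no test, and the members were tested only between cartilage layers, in the same libraries. Lists of genes outside the family were also tested between treatments, and these were chosen with earlier results of these data known.

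The 12 RNA-seq libraries came from goat temporomandibular joint (TMJ) cells, 3 for each combination of layer and treatment. Superficial layer cells (SLC) and middle cartilage layer cells (MLC) were digested from the condylar fibrocartilage of abattoir goats aged 6 to 9 months and grown to passage 3 to 5. The groups labelled IL-1β were given this inflammatory cytokine for 1 h (10 ng as written in the study's methods), and the groups labelled IL-1β + LOXL2 were in addition transduced with an adenovirus carrying lysyl oxidase-like 2, a matrix cross-linking enzyme. All 4 groups thus share IL-1β, and no group without it was analysed here. The culture methods do not state whether the IL-1β groups received an empty adenovirus, so LOXL2 and viral transduction cannot be told apart. The labels do not say that replicates came from separate animals or cultures, so p-values measure the spread between these libraries, which may be technical.

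Ribosomal proteins are made in matched amounts, and their mRNAs are abundant, short and start with a run of pyrimidines, the 5′ terminal oligopyrimidine (TOP) motif, through which the kinase mTORC1 and the protein LARP1 control their translation and stability. Cells raise or lower ribosome production with growth, nutrient supply and stress. Some ribosomal proteins have further roles, such as the pair RPL5 and RPL11, which bind the p53 regulator MDM2 when ribosome assembly is disturbed.

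Library totals ranged from 14158607 to 28931652 counts. The goat LOXL2 gene showed no rise under the label IL-1β + LOXL2, at 458 to 561 CPM (counts scaled to TMM library size) against 615 to 633 CPM in SLC and at 742 to 815 against 767 to 876 CPM in MLC, so every direction given for LOXL2 rests on the labels. In SLC, the quasi-likelihood test of edgeR passed 0 of 14103 genes for LOXL2, with 3257 higher and 2851 lower at an unadjusted p under 0.05. DESeq2 passed 2256 higher and 1978 lower. Without replicate 1 of SLC IL-1β + LOXL2, edgeR called 31.0% of genes higher and 30.8% lower, and 0 without any other SLC library. Its fit on all 12 libraries called 22.5% higher and 18.5% lower. Replicate 1 of SLC IL-1β + LOXL2 stood apart from the other libraries of its group (chi-square per degree of freedom over all genes of 159 and 58.1, against 29.2 for the other pair). Of 7 chondrocyte markers, 6 were above 1 CPM on average, but the cartilage collagen gene COL2A1 was at 0 in 5 of the 6 SLC libraries and at 0.046 CPM in the other, and at 10.4 to 20.8 CPM in MLC. Summed chondrocyte markers ranged from 1298 to 1422 CPM in SLC with IL-1β, from 744 to 1295 with IL-1β + LOXL2, and from 1464 to 1891 in MLC, and their part in the results was not tested. The 5 superficial fibrocartilage markers, led by collagen I and III genes, summed to 61112 to 72128 CPM. Leukocyte markers summed to 55.4 to 141 CPM, nearly all of it CD14, with the pan-leukocyte gene PTPRC at 0 to 0.103 CPM. Endothelial markers summed to at most 4.29 CPM and skeletal muscle markers to at most 0.821 CPM, the 1 erythroid marker found was at 0, and osteoblast markers summed to 13.7 to 20.6 CPM in SLC and 99.8 to 106 CPM in MLC, most of it SPP1.

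The members took 3.88%, 3.74% and 4.25% of all counts in the SLC libraries with IL-1β and 4.76%, 8.38% and 6.65% in those with IL-1β + LOXL2. In MLC they took 3.68%, 3.84% and 3.55% with IL-1β and 4.23%, 4.99% and 5.62% with IL-1β + LOXL2. Within each layer, every library labelled IL-1β + LOXL2 lay above every IL-1β library. The SLC mean went from 3.96% ± 0.265 to 6.60% ± 1.81 (SD, n = 3), a difference of 2.64 percentage points or 1.67-fold, and the MLC mean from 3.69% ± 0.141 to 4.94% ± 0.697 (SD, n = 3), a difference of 1.25 points or 1.34-fold. The spread was wide under LOXL2 in SLC, and without its replicate 2 the SLC difference was 1.75 points. Whether the LOXL2 difference was larger in SLC than in MLC was not tested. Counting error was small beside this spread, since the 95% Wilson interval of any library's share reached at most 0.0113 points to either side, an interval that covers counting error only. In bulk RNA, more of these transcripts per cell and a change in the mix of cells cannot be told apart.

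**Figure D1:**
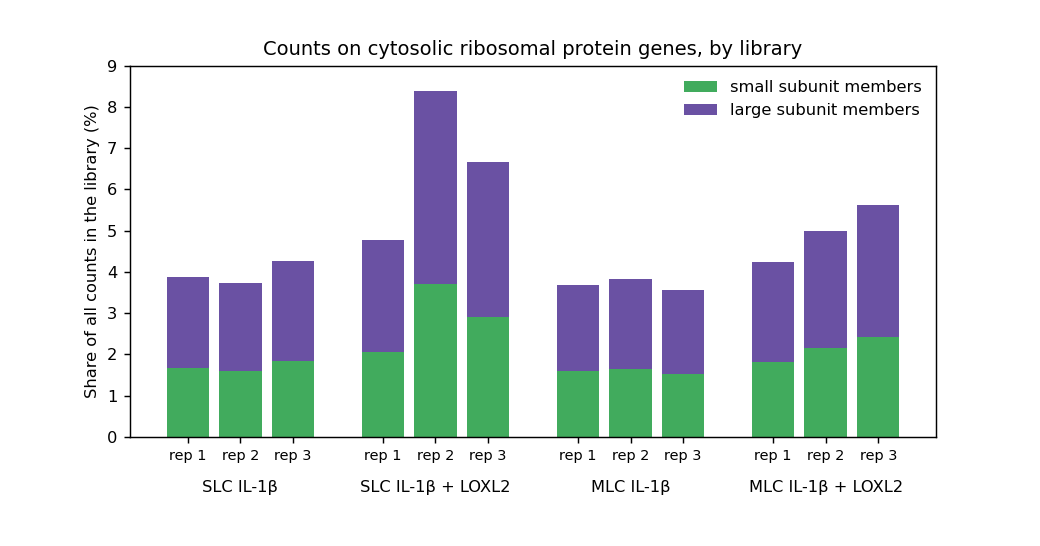
Stacked bars give the share of all counts (%) in each of the 12 libraries that fell on small subunit members (green) and large subunit members (purple), by group and replicate. The IL-1β libraries lie between 3.55% and 4.25%, and the IL-1β + LOXL2 libraries between 4.23% and 8.38%.

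Between layers, the share passed no test. With IL-1β, the MLC mean was 0.266 points below the SLC mean (two-sided exact permutation test, p = 0.2), and with IL-1β + LOXL2 it was 1.65 points below (two-sided exact permutation test, p = 0.3), in a design whose smallest p is 0.1. Pairs were also formed by replicate number, which was taken to pair the IL-1β + LOXL2 libraries from correlations in these data, not from the labels. The MLC share was the lower one in 3 of 3 pairs, by 0.535 to 3.39 points. A two-sided exact paired permutation test, added after the data were seen, gave p = 0.25, the smallest that 3 pairs allow. Both subunits had higher means with LOXL2. Large subunit members went from 2.26% ± 0.148 to 3.70% ± 0.989 of counts in SLC and from 2.11% ± 0.0833 to 2.82% ± 0.395 in MLC (SD, n = 3). Small subunit members went from 1.70% ± 0.116 to 2.90% ± 0.821 in SLC and from 1.58% ± 0.0587 to 2.13% ± 0.302 in MLC (SD, n = 3).

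The ratio of large to small subunit counts varied little. It was 1.327, 1.331 and 1.323 in SLC with IL-1β and 1.307, 1.261 and 1.280 with IL-1β + LOXL2, where all 3 libraries lay lower. In MLC it was 1.327, 1.348 and 1.344 with IL-1β and 1.322, 1.330 and 1.318 with IL-1β + LOXL2, and the groups overlapped. With IL-1β the MLC mean minus the SLC mean was 0.0130 (two-sided exact permutation test, p = 0.2), and taken as mean log2 CPM, large minus small, the layer difference had the other sign, -0.0049. With IL-1β + LOXL2 it was 0.0402, where the layers did not overlap (p = 0.1, the smallest this exact permutation test can give). The SLC libraries with the most member counts had the lowest ratios. The 4 members with the smallest SLC fold changes, RPL15, RPL4, RPL5 and RPL3, all belong to the large subunit, and 3 of them are among the 10 members with the most counts.

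Enough counts for a fit were present in 71 members in SLC, in MLC and between layers with IL-1β, and in 72 between layers with IL-1β + LOXL2. Of the others, RPL10L, a copy known from testis, had 0 counts in all 12 libraries, which allows a level of up to 0.104 to 0.212 CPM depending on the library, and RPL3L, the striated muscle counterpart of RPL3, had 2 to 44 counts. The genes lay on 26 named chromosomes, with 9 on chromosome 18, 3 on X (RPS4X, RPL36A and RPL39) and 1, RPL10, on a sequence without a chromosome in the ARS1.2 annotation. Their genomic spans, introns included, ran from 765 to 18350 bases with a median of 3583, against 20756 over all genes fitted in SLC. RPL37A, which has the longest span, is annotated as a long noncoding RNA gene.

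In SLC, all 71 members had higher fitted values with IL-1β + LOXL2 and non-overlapping groups. The median log2 fold change was 0.86, with a range from 0.42 to 1.08, beside 0.01 over all genes fitted. Over all genes 50.7% had a positive fold change and 25.5% were higher without overlap of groups, and nothing is read from either LOXL2 contrast since the members were chosen on their rise. In MLC, all 71 were again higher by fitted value, 70 without overlap, with a median of 0.44 and a range from 0.26 to 0.58. The single overlap was in RPL37, named after its values were seen, at 215, 243 and 254 CPM with IL-1β and 228, 308 and 353 CPM with IL-1β + LOXL2. The background in MLC was 50.9% positive and 21.0% higher without overlap.

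**Figure D2:**
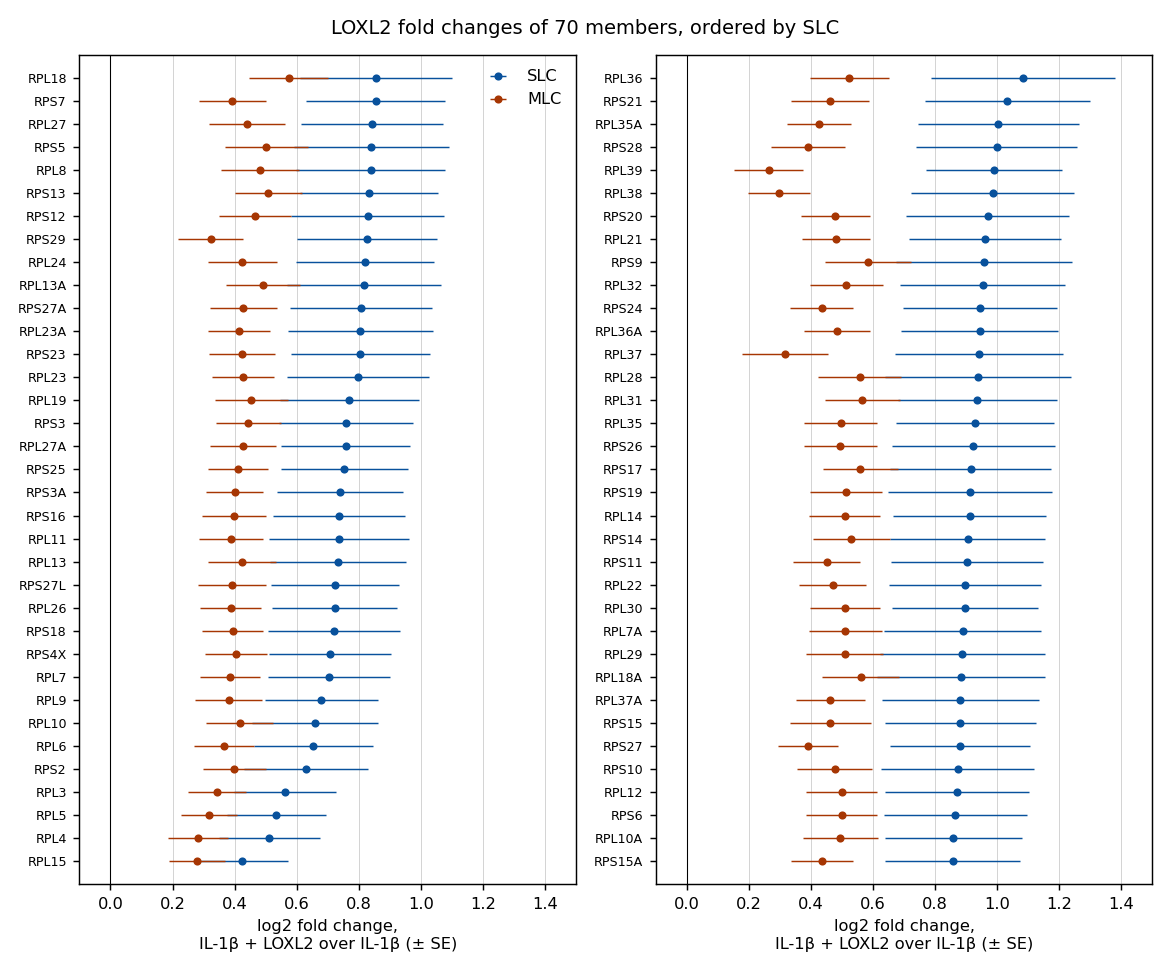
Points give the log2 fold change of IL-1β + LOXL2 over IL-1β with its standard error for 70 of the 71 members fitted, in SLC (blue) and MLC (brown), ordered by the SLC value and split over both panels. Every point lies above 0, and in each gene the SLC point, from 0.42 to 1.08, lies to the right of the MLC point, from 0.26 to 0.58.

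The layers showed the same order of size in part. Each of the 71 members had the larger fold change in SLC, by a median of 0.37 on the log2 scale, and this difference was not tested. Over all genes fitted, fold changes were also spread wider in SLC, with 5th and 95th percentiles of -0.91 and 0.83. In MLC these percentiles were -0.65 and 0.52. The Spearman coefficient between SLC and MLC fold changes was 0.54 over the 71 genes, which are not independent replicates and share libraries within each layer. The members moved together within groups too. In SLC with IL-1β + LOXL2, all 71 members were lowest in replicate 1 and highest in replicate 2, and replicate 2 was the highest of all 12 libraries for every one of them. In MLC with IL-1β + LOXL2, 70 of 71 were lowest in replicate 1 and highest in replicate 3. Without replicate 1 of SLC IL-1β + LOXL2 the SLC median was 1.06, and without replicate 2 it was 0.58.

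The 10 members with the most counts held 28.4% of all member counts. RPS2 (chromosome 25, 1430148 to 1432380), a small subunit protein, stood first at 1939, 1904 and 2076 CPM with IL-1β and 2208, 3891 and 3167 CPM with IL-1β + LOXL2 in SLC and at 1864, 1923 and 1814 CPM with IL-1β and 2130.1, 2515 and 2754 CPM with IL-1β + LOXL2 in MLC. Its log2 fold change was 0.63 (SE 0.20) in SLC and 0.40 (SE 0.10) in MLC. RPL4 (chromosome 10, 87909706 to 87914418), whose protein lines the tunnel through which the new peptide leaves, stood at 1735, 1694 and 1893 CPM with IL-1β and 2041, 3099.7 and 2537 CPM with IL-1β + LOXL2 in SLC and at 1651, 1799.6 and 1631 CPM with IL-1β and 1845, 2066 and 2281 CPM with IL-1β + LOXL2 in MLC. Its fold changes of 0.51 (SE 0.16) and 0.28 (SE 0.10) were among the smallest of the family. RPL15 (chromosome 27, 3606165 to 3610144), a large subunit protein, was the only member more than 3 scaled median absolute deviations from the family median, below it, in SLC, and no member was that far off in MLC. It stood at 939.9, 929 and 994 CPM with IL-1β and 1045, 1510.1 and 1331 CPM with IL-1β + LOXL2 in SLC, a log2 fold change of 0.42 (SE 0.15), and at 932, 987 and 933 CPM with IL-1β and 1055, 1139 and 1271 CPM with IL-1β + LOXL2 in MLC, 0.28 (SE 0.09). The groups did not overlap even for this member, in either layer.

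The others of the 10 included RPL13A, RPL10, RPL7A, RPL3, RPL8 and RPS6. RPL3, which sits by the peptidyl transferase centre, had SLC and MLC log2 fold changes of 0.56 (SE 0.16) and 0.34 (SE 0.09). RPL10, which joins the large subunit late in its assembly, had 0.66 (SE 0.20) and 0.42 (SE 0.11). RPL7A and RPL8, both large subunit proteins, had 0.89 and 0.84 in SLC. RPS6, the small subunit protein phosphorylated by S6 kinase, stood at 834, 796 and 881 CPM with IL-1β and 1043, 2082 and 1507 CPM with IL-1β + LOXL2 in SLC and at 773, 850.0 and 786 CPM with IL-1β and 946, 1151 and 1312 CPM with IL-1β + LOXL2 in MLC. Its fold changes of 0.87 (SE 0.23) and 0.50 (SE 0.11) lay near the family medians. The share of member counts held by the 10 was lowest in replicate 2 of SLC IL-1β + LOXL2, at 26.3%, and reached 30.1% in MLC replicate 3 with IL-1β.

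At the other end of the SLC range, with genes named after their values were seen, stood the small proteins RPL36, RPS21, RPL35A and RPS28. RPL36 had the largest SLC fold change of the family, 1.08 (SE 0.30), at 174, 176 and 204 CPM with IL-1β and 228, 574 and 388 CPM with IL-1β + LOXL2. RPS21 followed with 1.03 (SE 0.27), and RPS28 had 1.00 (SE 0.26). In MLC the largest was RPS9, at 0.58 (SE 0.14). Over the 71 members, the Spearman coefficient of log2 fold change with mean CPM was -0.45 in SLC and 0.12 in MLC. CPM here is not divided by transcript length, and fold change and mean come from partly the same libraries.

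Of the members with known roles beyond the ribosome, RPL5 and RPL11, which form a particle with 5S ribosomal RNA, had SLC log2 fold changes of 0.53 and 0.73 and MLC ones of 0.32 and 0.39. RPL13A, which takes part in interferon-dependent translational silencing, stood at 1118, 1049 and 1172 CPM with IL-1β and 1259, 2669.6 and 2024 CPM with IL-1β + LOXL2 in SLC and at 989, 1106 and 996 CPM with IL-1β and 1174, 1514 and 1666 CPM with IL-1β + LOXL2 in MLC. Its fold changes were 0.82 (SE 0.25) and 0.49 (SE 0.12). RPS3, which also acts in DNA repair and binds the NF-κB subunit RELA, had 0.76 (SE 0.22) in SLC and 0.44 (SE 0.10) in MLC. RPS19, the gene most often mutated in Diamond-Blackfan anaemia, had 0.91 and 0.51. RPS27A, made as a fusion with ubiquitin, had 0.81 and 0.43. RPL10A had 0.86 and 0.49, and RPS25, needed for translation from several internal entry sites, had 0.75 and 0.41. All of these lay without overlap of groups in both layers. The 13 proteins of the 40S head had medians of 0.84 in SLC and 0.46 in MLC, and 7 proteins of the exit tunnel and its rim had 0.80 and 0.41.

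Short genes as a class were higher with LOXL2, and the members are short. Over all genes fitted with a known span, the Spearman coefficient of log2 fold change with span was -0.49 in both layers, while over the 71 members it was -0.15 in SLC and -0.01 in MLC. Of the members, 46 spanned 2 to 5 kb and had a median of 0.84 in SLC and 0.45 in MLC, beside 0.39 and 0.24 for the other genes of that span. The 9 members under 2 kb had 0.88 and 0.42, beside 0.52 and 0.31, and the 15 of 5 to 10 kb had 0.85 and 0.43, beside 0.31 and 0.20. With each library's trend on span removed, the members' median was 0.53 in SLC and 0.24 in MLC, and all 71 stayed above 0 in both layers. These comparisons by span are a description only, since the members were chosen on their rise. Genes spanning over 100 kb took 13.4% to 14.6% of counts in SLC with IL-1β and 7.78% to 12.2% with IL-1β + LOXL2, and 12.7% to 13.2% and 9.12% to 11.7% in MLC. The lowest of these shares was in the SLC library with the most member counts. Transcript length, GC content and RNA integrity were not used here, and their part in the result was not tested.

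**Figure D3:**
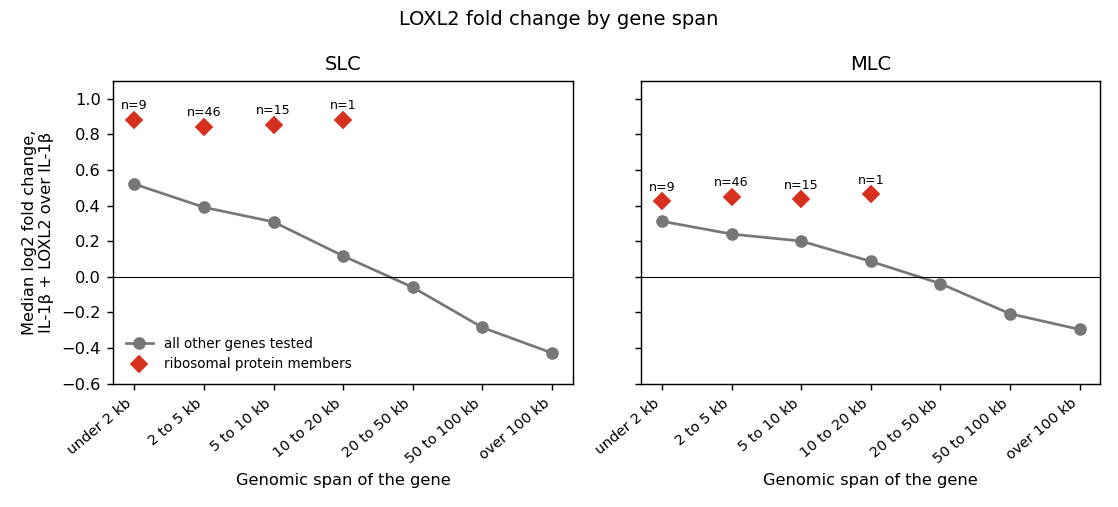
Median log2 fold change of IL-1β + LOXL2 over IL-1β (vertical axis) by class of genomic span (horizontal axis) in SLC and MLC, for all other genes fitted (grey) and for the members (red, with their number). The members lie above the other genes of the same span in each class that holds any, for example 0.84 against 0.39 at 2 to 5 kb in SLC. The members were chosen on their rise, so this is a description only.

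Between layers with IL-1β alone, 18 of 71 members were lower in MLC than in SLC and 0 were higher (quasi-likelihood test in edgeR, Benjamini-Hochberg adjusted over all genes, 3 libraries a group). The 18 make 25.4% of the members, beside 22.7% of all genes called lower and 24.2% called higher. At an unadjusted p under 0.05 the members gave 21 lower and 0 higher, and DESeq2 gave 17 lower and 0 higher, beside 19.8% and 21.8% of all genes. Groups did not overlap in 22 members, all lower in MLC, beside 27.8% of all genes lower without overlap. The median over members was -0.06 on the log2 scale, and most members did not pass the test. The count of 18 was 2 in a fit on all 12 libraries, where 11.4% of all genes were called lower, and 31 with the span trend removed, beside 23.9% of all genes. It was 10 without SLC replicate 3 (20.8% of all genes) and 7 without MLC replicate 3 (18.5% of all genes).

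The largest difference was in RPL39 (chromosome X, 24623505 to 24627009), a very small protein of the exit tunnel. It stood at 48.3, 46.5 and 50.1 CPM in SLC and at 31.4, 28.99 and 31.6 CPM in MLC with IL-1β, a log2 fold change of -0.65 (SE 0.07) with adjusted p = 3.39e-06 from edgeR. RPL9 (chromosome 6, 59153591 to 59158355), a large subunit protein, stood at 405, 376 and 429 CPM in SLC and 289.7, 271 and 282 CPM in MLC, -0.52 (SE 0.06) on the log2 scale with adjusted p = 1.26e-05 from edgeR. For both genes all 3 MLC libraries lay below all 3 SLC libraries, and the call held in all 13 alternatives run. RPS29 and RPS27, small zinc-binding proteins of the 40S subunit, and RPL37A, a zinc-binding protein of the 60S subunit, followed. RPS29 (chromosome 10, 60400653 to 60402483) stood at 182, 183 and 210.1 CPM in SLC and 159, 133 and 142 CPM in MLC, -0.40 (SE 0.08) with adjusted p = 0.000615. RPL37A (chromosome 2, 31290237 to 31308586) stood at 347, 337 and 382 CPM in SLC and 296, 276 and 262 CPM in MLC, -0.35 (SE 0.07) with adjusted p = 0.000688. RPS27 (chromosome 3, 103699112 to 103700692) stood at 198, 178 and 207 CPM in SLC and 163, 151 and 142 CPM in MLC, -0.35 (SE 0.07) with adjusted p = 0.00107. These 3 were lower in 3 of 3 MLC libraries, and their calls were lost in the fit on all 12 libraries. Of the 7 exit tunnel and rim proteins, edgeR called 4 lower in MLC and 0 higher, beside 22.7% and 24.2% of all genes and 25.4% of the members lower, with 0 higher also at an unadjusted p under 0.05 and by DESeq2. RPL39 is one of the 4. The fit on all 12 libraries called 2 of the 71 members lower, RPL39 and RPL9, beside 11.4% of all genes. The count of 4 did not hold in that fit.

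With IL-1β + LOXL2, the members' median between layers was -0.43, with 71 of 72 lower in MLC by fitted value, beside a median of -0.03 over all genes. edgeR passed 5 members lower and 0 higher, or 6.94% of them lower, beside 6.83% of all genes lower and 9.27% higher. At an unadjusted p under 0.05 there were 18 lower and 1 higher, and DESeq2 gave 10 lower and 1 higher, beside 9.16% and 11.3% of all genes. Groups did not overlap in 6 lower members, beside 17.0% of all genes. The labels do not say that replicate numbers pair the libraries of these groups. The numbers were taken to pair them because deviations of same-numbered libraries correlated in these data, at 0.61, 0.21 and 0.17. With the replicate number as a block, edgeR passed 27 members lower, or 37.5% of the 72, beside 13.2% of all genes. The block also passed 1 member higher, beside 14.4% of all genes. This was RPL3L, at 10, 7 and 44 counts in MLC and 3, 10 and 5 in SLC. The unblocked count of 5 rested on single libraries. It was 61 without SLC replicate 1, beside 16.1% of all genes called lower, and 1 without any of the other 5 libraries, beside 3.05% to 5.78% of all genes. The median was -0.67 without SLC replicate 1 and -0.17 without SLC replicate 2.

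The 5 members were RPL39, RPL38, RPS29, RPS27 and RPL9. RPL39 stood at 65.6, 127 and 99.1 CPM in SLC and 35.6, 33.4 and 41.5 CPM in MLC under LOXL2, a log2 fold change of -1.38 (SE 0.23) with adjusted p = 0.00629 from edgeR, and was called in all 13 alternatives. RPL38 (chromosome 19, 56459954 to 56464247), a large subunit protein known for its part in the translation of Hox mRNAs, stood at 91.8, 196 and 164 CPM in SLC and 72.0, 78.7 and 84.7 CPM in MLC, -0.92 (SE 0.25) with adjusted p = 0.0451. RPS29 stood at 227, 442 and 363 CPM in SLC and 162, 186 and 197 CPM in MLC, -0.90 (SE 0.23) with adjusted p = 0.0335. RPS27 stood at 245, 483 and 358 CPM in SLC and 181, 209 and 210.2 CPM in MLC, -0.84 (SE 0.22) with adjusted p = 0.0431. RPL9 stood at 481, 802 and 679 CPM in SLC and 326, 343 and 429 CPM in MLC, -0.82 (SE 0.20) with adjusted p = 0.0304. In each of the 5, SLC was higher in every library than MLC. The calls of the 4 other than RPL39 were lost without any 1 library except SLC replicate 1. All 5 are among the 18 called with IL-1β, which makes 27.8% of those 18. The same overlap was not taken over all genes, so it is a description only. The layer comparisons share no library, but the labels do not say that their cells came from separate animals or cultures.

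**Figure D4:**
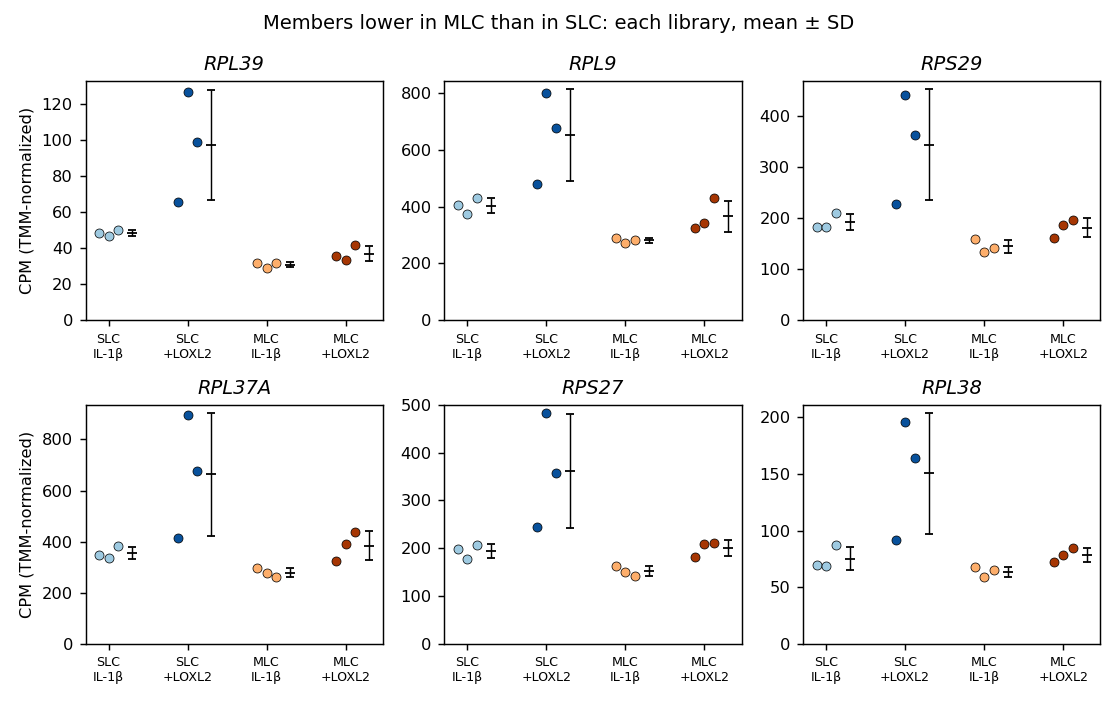
CPM (TMM-normalized, axes starting at 0) of the 6 members named as lower in MLC, with each library as a point by group and the mean ± SD (n = 3) as a bar beside it. RPL39 lies at 46.5 to 50.1 in SLC and 28.99 to 31.6 in MLC with IL-1β, and at 65.6 to 127 and 33.4 to 41.5 with IL-1β + LOXL2.

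Relative to the family median of the same contrast, the layer difference of RPL39 lay at -0.59 on the log2 scale with IL-1β and at -0.95 with IL-1β + LOXL2, and that of RPL9 at -0.46 and -0.39. RPL39 also had the smallest MLC fold change with LOXL2 of the 71 members, 0.26 (SE 0.11), and RPL38 stood at 0.30 (SE 0.10), while in SLC both were near the top with 0.99 (SE 0.22) and 0.99 (SE 0.26). Over the members, the Spearman coefficient of the layer difference with mean CPM was 0.50 with IL-1β (71 genes) and 0.63 with IL-1β + LOXL2 (72 genes), so members with fewer counts tended to have the lower values in MLC.

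The proportions within the family were described over the 12 libraries, with no other gene set given the same measure. For each library the mean log2 CPM of the 71 members was subtracted from each member's value, and the range of this difference over the 12 libraries was taken. The median range was 0.26 on the log2 scale, and 61 of 71 members stayed under 0.5. It was largest in RPL39, at 1.06. RPL15 (0.72), RPL38 (0.65), RPL9 (0.63) and RPL3 (0.58) came next. RPL15, RPL3, RPL4 and RPL5 were lowest against the family in replicate 2 of SLC IL-1β + LOXL2, the library with the most member counts.

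**Figure D5:**
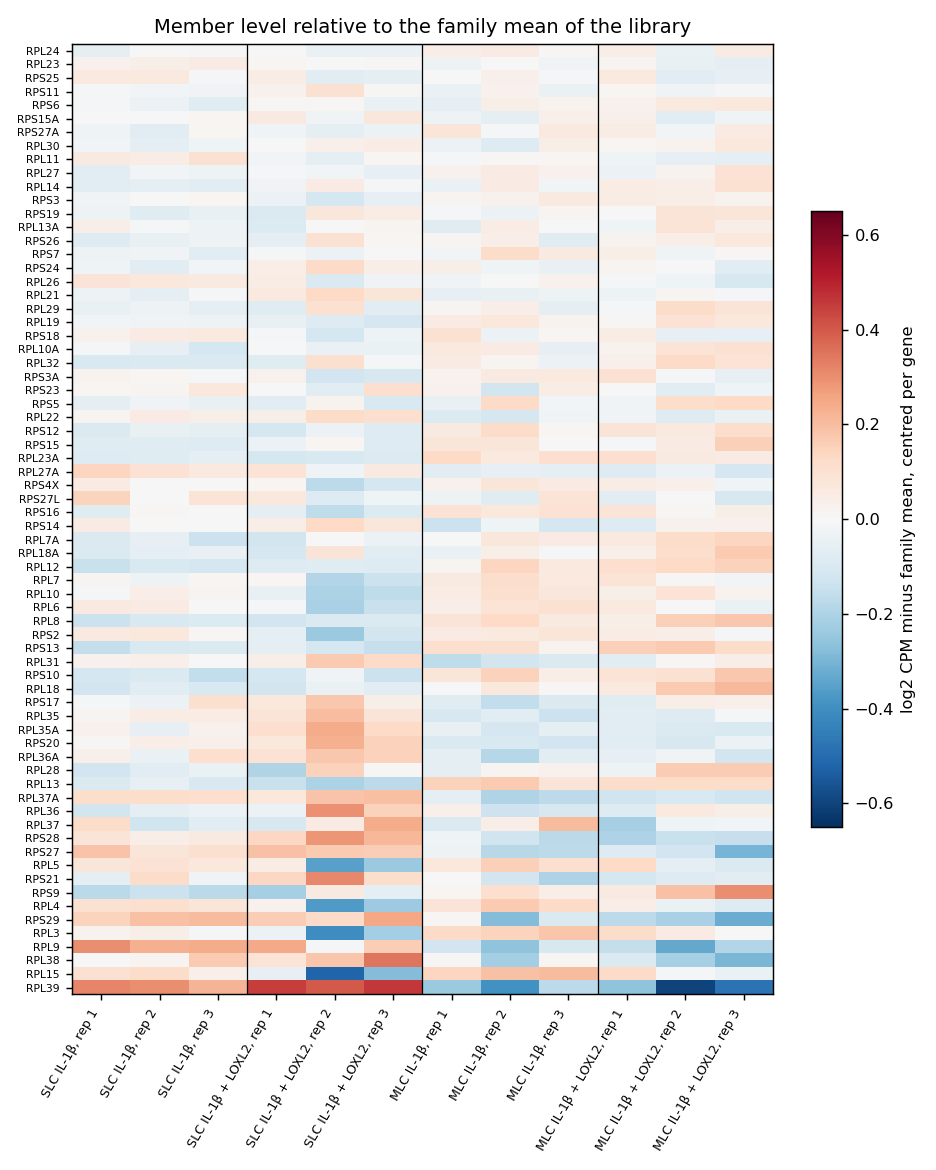
Colour gives each member's log2 CPM minus the mean over the 71 members in that library, centred per gene, with libraries in columns by group and 70 members in rows in order of range, the widest being RPL39 (1.06). RPL39 and RPL9 are above their own mean in nearly all SLC libraries and below it in MLC, and RPL15, RPL3 and RPL4 are lowest in replicate 2 of SLC IL-1β + LOXL2.

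Members with close relatives were read with care, since the settings for reads that map to several genes are not given in the sources used here. RPS27L, a p53-induced copy of RPS27, stood at 108, 95.3 and 115 CPM with IL-1β and 127, 228 and 178 CPM with IL-1β + LOXL2 in SLC and at 92.0, 91.4 and 95.8 CPM with IL-1β and 103, 128 and 136 CPM with IL-1β + LOXL2 in MLC. It was lower in MLC with IL-1β by the test (log2 fold change -0.19, SE 0.07, adjusted p = 0.0448 from edgeR), with overlapping groups. RPS4X, X-linked in mammals, had LOXL2 fold changes of 0.71 in SLC and 0.40 in MLC, and a layer difference with IL-1β of -0.06 (SE 0.07) that did not pass. RPL36A, also on X, was lower in MLC with IL-1β (log2 fold change -0.25, SE 0.08, adjusted p = 0.0208 from edgeR). RPL22, whose protein also binds viral small RNAs, was lower too (log2 fold change -0.21, SE 0.06, adjusted p = 0.0133 from edgeR). RPL3L was at 0.133 to 0.346 CPM in SLC and 0.141 to 0.589 CPM in MLC with IL-1β, levels of a few counts, and at 2.39 CPM in replicate 3 of MLC IL-1β + LOXL2.

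Subunit genes that the symbol rule misses, and close relatives of members, gave 10 more genes. All 10 had higher fitted values with LOXL2 in both layers, with medians of 0.81 in SLC and 0.48 in MLC. RPLP0, the core of the ribosomal stalk, stood at 1861, 1806 and 2071 CPM with IL-1β and 2193, 4107 and 3239 CPM with IL-1β + LOXL2 in SLC and at 1798, 1984 and 1793 CPM with IL-1β and 2147, 2574 and 2875 CPM with IL-1β + LOXL2 in MLC. RPLP1 and RPLP2, the acidic stalk proteins, had SLC log2 fold changes of 0.94 and 0.95, and FAU, which yields a small subunit protein as a fusion, had 0.97. With IL-1β, RPSA, a small subunit protein also known as the laminin receptor, stood at 818, 813 and 913 CPM in SLC and 559.5, 587 and 574 CPM in MLC. Its log2 fold change was -0.56 (SE 0.06, adjusted p = 6.11e-06 from edgeR). The 1 gene of the 10 called higher in MLC than in SLC with IL-1β was RPL22L1, the paralog of RPL22, at 0.26 (SE 0.07, adjusted p = 0.00707 from edgeR). RPL7L1, RPL26L1 and RPL36AL had SLC fold changes of 0.55, 0.62 and 0.92.

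The other lists of translation genes had lower LOXL2 medians than the members, a description only, since the members were chosen on their rise. The median gene spans of these lists were longer, from 9622 to 23475.5 bases against 3583, and the comparison was not adjusted for span. Their calls with LOXL2 in MLC stand beside 9.81% of all genes called higher and 11.8% called lower by edgeR. For all genes, and so for each list, that test called 0 when the 12 libraries were fitted jointly and when IL-1β replicate 1, IL-1β replicate 3 or IL-1β + LOXL2 replicate 2 of MLC was left out, with 1745 to 1861 genes higher and 1929 to 2110 lower at an unadjusted p under 0.05 in those fits. Without IL-1β + LOXL2 replicate 1 it called 23.7% higher and 24.4% lower, without IL-1β replicate 2 1.53% and 4.41%, and without IL-1β + LOXL2 replicate 3 0.607% and 2.82%. DESeq2 on the 6 MLC libraries called 11.1% higher and 13.0% lower. Of 21 other mRNAs with a TOP motif, edgeR called 7 (33.3%) higher and 1 (4.76%) lower with LOXL2 in MLC, with medians of 0.32 in SLC and 0.17 in MLC. EEF1A1, the elongation factor that brings aminoacyl-tRNA to the ribosome, stood at 6829, 6634 and 7019.9 CPM with IL-1β and 7261, 7248 and 7389 CPM with IL-1β + LOXL2 in SLC and at 5748, 6060.0 and 5813 CPM with IL-1β and 6272, 6079.8 and 6116 CPM with IL-1β + LOXL2 in MLC, log2 fold changes of 0.08 (SE 0.11) and 0.07 (SE 0.08). EEF2, the translocation factor, had -0.03 (SE 0.11) in SLC. TPT1, a growth-related TOP mRNA, had 0.69 (SE 0.20) in SLC and 0.40 (SE 0.10) in MLC, and VIM, encoding vimentin, had 0.35 (SE 0.13) and 0.19 (SE 0.09). Of 39 initiation factors, 10 (25.6%) were called higher and 1 (2.56%) lower in MLC (medians 0.30 in SLC, 0.18 in MLC), and of 13 elongation and release factors 8 (61.5%) higher and 0 lower, with 0 lower also at an unadjusted p under 0.05 and by DESeq2 (medians 0.56 and 0.33).

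Of 82 ribosome assembly factors, 13 (15.9%) were called higher and 7 (8.54%) lower with LOXL2 in MLC, beside 9.81% and 11.8% of all genes, with medians of 0.18 in SLC and 0.10 in MLC. Between layers with IL-1β, edgeR called 43 of the assembly factors higher in MLC and 2 lower, beside 24.2% and 22.7% of all genes and beside 0 and 18 of the 71 members. None of 11 RNA polymerase I genes was called by edgeR with LOXL2 in MLC (3 higher and 1 lower at an unadjusted p under 0.05, and 0 by DESeq2), with medians of 0.25 and 0.14. Of 30 genes of mTORC1 and TOP control, 5 (16.7%) were called higher and 6 (20%) lower in MLC, beside 9.81% and 11.8% of all genes. The medians of this list were 0.21 in SLC and 0.19 in MLC. MTOR, the kinase itself, stood at 138, 162 and 140.1 CPM with IL-1β and 120.4, 80.9 and 93.8 CPM with IL-1β + LOXL2 in SLC and at 222, 185 and 223 CPM with IL-1β and 185, 152 and 146 CPM with IL-1β + LOXL2 in MLC, log2 fold changes of -0.59 (SE 0.17) and -0.39 (SE 0.11). LARP1, which binds TOP motifs, had -0.51 (SE 0.17) and -0.39 (SE 0.10), and MYC, a driver of ribosome production, had -0.10 (SE 0.11) and -0.03 (SE 0.10).

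Other large complexes were set beside the family. The median gene span was 7028 bases for mitochondrial ribosomal proteins, 7617 for complex I and 12769 for the proteasome, against 3583 for the members. The 77 mitochondrial ribosomal protein genes had LOXL2 medians of 0.64 in SLC and 0.37 in MLC, with 35 (45.5%) called higher and 0 lower by edgeR in MLC, beside 9.81% and 11.8% of all genes (0 lower also at an unadjusted p under 0.05 and by DESeq2). The 37 complex I subunit genes had 0.74 and 0.46, with 27 (73.0%) called higher, and the 38 proteasome subunit genes had 0.46 and 0.32, with 16 (42.1%) called higher. These calls too were lost in the fits that called 0 of all genes. The members' medians of 0.86 and 0.44 were above those of these lists in SLC and near that of complex I in MLC. Since the members were chosen on their rise, which favours them, this ranking is a description only. This comparison was not adjusted for gene span. Between layers with IL-1β, edgeR called 24.2% of all genes higher in MLC and 22.7% lower. It called 13 mitochondrial ribosomal protein genes higher (16.9%) and 2 lower, 24 proteasome genes higher (63.2%) and 1 lower, and 3 complex I genes higher (8.11%) and 4 lower (10.8%).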

How the data were processed

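Per the labels and the study's methods, poly-T selected RNA was sequenced in paired ends, mapped to the goat genome ARS1.2 and counted per gene with featureCounts. The submitters' processing notes also name HISAT2. The deposited values are unnormalized counts, 1 table a layer. Settings for strand and multi-mapping reads are not given in the sources used here. The labels name an RNeasy kit and the methods TRIzol. Genes were fitted by glmQLFit and glmQLFTest of edgeR 4.0.16 (R 4.3.3, limma 3.58.1) after TMM scaling and filterByExpr (count of 10, total of 15), using the 6 libraries of a comparison and no replicate block. P-values were Benjamini-Hochberg adjusted over all genes, with calls under 0.05. SE is the log2 fold change over the root of its F statistic. Shares are raw counts of members over the library total, where a count of 0 allows 3 counts. A paired exact permutation test of the share by replicate number was added after the data were seen. Alternatives were the Wald test of DESeq2 1.42.0, its size factors, no filter, at least 10 counts in every library, the replicate block, omission of each library in turn, a joint fit of all 12 libraries, and removal of each library's lowess trend on gene span (smoother span 0.3).

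The members and gene lists were chosen with earlier results of these data known. Members named are the 10 with the most counts, those over 3 scaled median absolute deviations from the family median of a LOXL2 contrast, the 5 largest layer differences each way, paralogs and their parents, members with further roles, and 10 family genes outside the symbol rule. Of the other lists, up to 4 genes of highest mean CPM, and MTOR, LARP1 and MYC, are named. RPL17, RPL34, RPL41, RPL39L, RPS4Y1 and RPS4Y2 were not analysed here. The values of 1 member and 1 of the 10 family genes are not reported here. Replicate numbers come from the labels. Deviations from group means of same-numbered SLC and MLC libraries with IL-1β + LOXL2 correlated at 0.61, 0.21 and 0.17, each over 0.1, so the numbers were taken to pair them. Each other comparison had at least 1 correlation at or below 0.1. The procedure was run on simulated counts with planted changes. Their spread between replicates was set in advance and not taken from these libraries, so this run does not measure error rates here. Every replicate pair differed beyond counting noise, with a chi-square per df of 2.23 or more. Gene positions are those of RefSeq for ARS1.2.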

Additional observations from a re-analysis of the deposited data

How the results depend on the processing

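The members' median LOXL2 fold change stayed above 0 in every fit run, a description only, since the members were chosen on their rise. It ranged from 0.58 to 1.06 in SLC and from 0.34 to 0.55 in MLC with 1 library left out, and was 0.24 in MLC with the gene-span trend removed. The layer median ranged from -0.10 to -0.01 with IL-1β and from -0.67 to -0.17 with IL-1β + LOXL2 when 1 library was left out. The number of members lower in MLC with IL-1β was 2 in the fit on all 12 libraries (11.4% of all genes), 31 with the span trend removed (23.9%), and 7 to 21 with 1 library left out (18.2% to 22.6%). With IL-1β + LOXL2 it was 3 with at least 10 counts in every library (5.68% of all genes), 10 by DESeq2's Wald test (9.16%), 27 with the replicate block (13.2%), 24 in the fit on all 12 libraries (14.3%), 12 with the span trend removed (10.03%), and 1 to 61 with 1 library left out (3.05% to 16.1%). The number higher was 1 by DESeq2 and 1 with the replicate block. With IL-1β, the replicate block gave 14 lower. The LOXL2 medians with the replicate block were 0.80 in SLC and 0.43 in MLC, and it changed the sign of none of the 4 medians. With the replicate block, added after the data were seen, the layer difference with IL-1β + LOXL2 gave p = 0.25 for the share and for the large to small ratio (exact paired permutation test), the smallest that 3 pairs allow. The difference in share with 1 library left out ranged from 1.75 to 3.56 points in SLC and from 0.916 to 1.61 in MLC. Without RPS2, the LOXL2 difference in the large to small ratio was -0.0718 in SLC and -0.0256 in MLC. Taken as mean log2 CPM of large minus small members, the layer difference with IL-1β was -0.0049, with p = 0.7 by the two-sided exact permutation test, and 0.0130 for the ratio, with p = 0.2. The causes were not tested. Depth limits RPL3L, at 2 to 44 counts, and RPL10L, at 0 counts.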
